A study of Sus scrofa with 13 samples.

Results

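Heparan sulfate is a long sugar chain that cells attach to core proteins at their surface and in the matrix. Its sulfate groups decide which growth factors, chemokines and coagulation proteins the chain binds. NDST enzymes act first, replacing acetyl groups of the sugar with sulfate, and the 3-O-sulfotransferases of the HS3ST family act last and add the rarest mark. The 9 genes described here are 3 NDST genes (NDST1, NDST2 and NDST3) and 6 HS3ST genes (HS3ST1, HS3ST2, HS3ST3A1, HS3ST3B1, HS3ST4 and HS3ST5). They were taken by symbol from the 27339 gene rows of the deposited count tables, and all 9 had a row in each table. The members were chosen by their measured values in so far as a row of 5hmC reads had to be present, and the family was picked with the hypoxia difference of HS3ST3B1 already known. Values of that contrast are therefore given as a description. The label held for its members: all 9 symbols name sulfotransferases of this chain. It does not take in every such enzyme, since HS2ST1, HS6ST1, HS6ST2, HS6ST3 and HS3ST6 had rows as well, while no row was named NDST4.

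The measurement was 5-hydroxymethylcytosine (5hmC), the oxidised form of DNA methylation that TET enzymes make with the use of oxygen. Single-stranded DNA fragments were pulled down with an antibody against 5hmC and sequenced, and reads were counted per gene, so a value below is a 5hmC signal at a gene and not its expression. All cells were mesenchymal stem cells, fibroblast-like multipotent cells, grown out of abdominal fat of domestic female pigs. Every pig had eaten a diet with 2% cholesterol, carried a coil that narrowed 1 renal artery, and gave fat 3 weeks after the coil was placed. No cells of healthy pigs are among these libraries, and the age of the pigs is not given. In the hypoxia group (6 libraries) the cells were kept at 1% oxygen for 48 hours, and in the normoxia group (6 libraries) at 20% oxygen. The titles carry the numbers 110, 16, 21, 33, 49 and 4, each on 1 hypoxia and 1 normoxia library. The labels do not say what these numbers mean or that the libraries are separate cultures or animals, so each p-value speaks to the scatter of these 12 libraries, part of which may be technical.

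The libraries held 263578 to 714002 reads in genes, the fewest in normoxia 21. These were 1.693 to 2.886% of the reads of a library, so the levels below leave out most of what was sequenced. Levels are given as CPM, counts per 1e6 reads in the 11868 genes that could be tested, after edgeR's TMM scaling. On this scale 3 reads corresponded to 4.62 CPM in the deepest and 14.5 CPM in the shallowest library. Numbers 49 and 4 were sequenced on lane 8 and the other 4 on lane 7. All 6 stromal marker genes examined (NT5E, THY1, ENG, CD44, PDGFRA and PDGFRB) carried reads, with summed levels of 590 to 875 CPM in hypoxia and 560 to 1170 CPM in normoxia. All 6 leukocyte markers (343 to 474 and 259 to 420 CPM) and all 5 endothelial markers (404 to 573 and 305 to 536 CPM) carried reads too. The same held for the 4 adipocyte markers (207 to 414 and 125 to 266 CPM) and the 3 epithelial markers (76.1 to 139 and 66.2 to 130 CPM). The median sum of the stromal markers was lower in hypoxia than in normoxia (675 and 774 CPM). Medians of the other sets were higher in hypoxia: leukocyte 422 and 342, endothelial 429 and 404, adipocyte 247 and 184, epithelial 105 and 89.5 CPM. Since 5hmC reads at a gene do not show that it is expressed, these levels do not test the cell type, and their part in the results below was not tested.

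HS3ST3B1 had the widest range of levels among the members, and its level went with the title number. This enzyme and its close relative HS3ST3A1 place 3-O-sulfate on chain segments other than the antithrombin-binding one. In normoxia HS3ST3B1 had 30.9 CPM in number 110, 46.7 in 16, 14.5 in 21, 468 in 33, 138 in 49 and 234 in 4. In hypoxia it had 27.3 CPM in number 110, 27.8 in 16, 21.9 in 21, 172 in 33, 60.9 in 49 and 138 in 4. Both libraries of 33, 49 and 4 were above all libraries of 110, 16 and 21, with no overlap between 60.9 to 468 and 14.5 to 46.7 CPM. This split of the numbers was seen in the values and is no group of the study, so the lack of overlap is no test. How many other genes separate numbers in this way was not counted. These levels rested on 28 to 170 reads in the high libraries and on 3 to 20 reads in the low ones. The mean of the 2 libraries of a number ran from 18.2 CPM (number 21) to 320 CPM (number 33). Both ends lean on 1 library: normoxia 21 had 3 reads, and without normoxia 33 the highest mean is the 186 CPM of number 4.

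**Figure D1:**
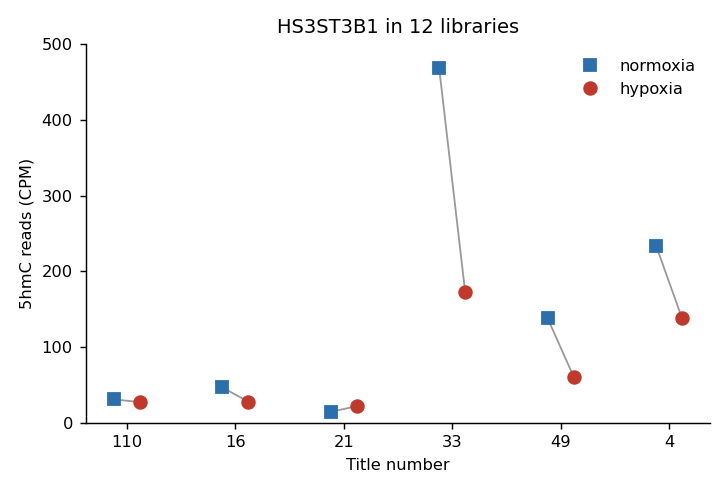
HS3ST3B1 5hmC reads in CPM (y axis) by title number (x axis), with normoxia as blue squares, hypoxia as red circles and a grey line joining the 2 libraries of a number. Numbers 33, 49 and 4 stand at 60.9 to 468 CPM and numbers 110, 16 and 21 at 14.5 to 46.7 CPM, in both groups.

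Differences among the title numbers do not involve the hypoxia contrast and were tested for all genes together, with oxygen as a covariate. Of 11868 genes tested, 1520 (12.8%) passed edgeR's quasi-likelihood F test after Benjamini-Hochberg adjustment, so differences of this kind were common. Of the 9 members 4 met the count filter, which asks for enough reads in enough libraries. Of these 4, 1 passed the test, HS3ST3B1. It ranked 2 of 11868 by p (F = 31.4, edgeR adjusted p = 1.07e-07), between the uncharacterised locus LOC106504370 and RGS2, a regulator of G protein signalling. The fitted difference between its highest and lowest number was 3.83 on the log2 scale, against a median of 1.05 over all genes. By that span it was 9 of 11868 from the widest. Without number 33 the span was 3.17 (33 of 11880 genes), and without number 21 it was 3.34 (30 of 12165).

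**Figure D2:**
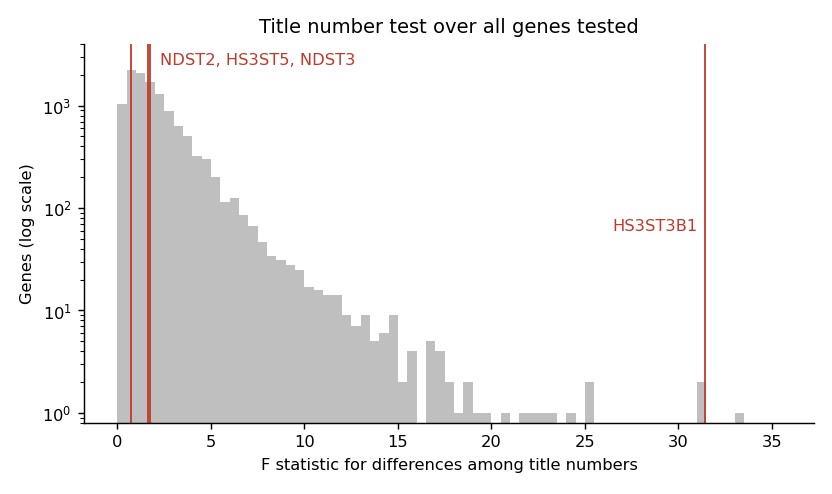
Histogram of the F statistic for differences among the 6 title numbers over all 11868 genes tested (x axis, F; y axis, number of genes on a log scale), with red lines at the 4 tested members. HS3ST3B1 lies at 31.4 in the far tail, while NDST2 (0.745), HS3ST5 (1.63) and NDST3 (1.72) lie in the bulk.

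Each title number was sequenced on 1 lane, so any lane difference is contained in the test among numbers. It cannot be told apart from a difference between 49 and 4 and the other numbers, and was not tested. Among the 4 numbers of lane 7, HS3ST3B1 passed with an edgeR adjusted p of 7.2e-06, but lane 7 holds 1 of the 3 high numbers, number 33, beside 110, 16 and 21. Lane 8 consists of the other 2 high numbers, 49 and 4, with means of 99.6 and 186 CPM, and there it did not pass (adjusted p = 0.277). Leaving out each number in turn gave adjusted p of 7.85e-10 to 5.02e-05. The following restates the test among numbers as a spread and adds no evidence to it. The biological coefficient of variation of HS3ST3B1 was 0.708 when the numbers were ignored and 0.197 when each number had its own level. For HS3ST5 it went from 0.319 to 0.232, for NDST2 from 0.237 to 0.191 and for NDST3 from 0.296 to 0.219, beside 0.305 and 0.21 over all genes.

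Within the numbers, HS3ST3B1 was lower in hypoxia in 5 of 6. The group means were 74.6 ± 64.6 CPM in hypoxia and 155 ± 174 CPM in normoxia (SD, n = 6 each), and the groups overlapped. In numbers 33, 49 and 4 the log2 ratio of hypoxia to normoxia was -1.45, -1.19 and -0.76, in 16 it was -0.75 and in 110 it was -0.18. Number 21 went the other way, on 8 reads in hypoxia and 3 in normoxia. The log2 fold change was -1.03 ± 0.596 (SE) without the numbers and -0.89 ± 0.227 with the number as a block. Neither passed over all genes (edgeR adjusted p of 1 and 0.226), and since this contrast was known when the gene was picked, nothing is read from it. Leaving out normoxia 33 reduced the unblocked value to -0.34. In the blocked fit the edgeR adjusted p was 0.0267 without number 21, the number that went the other way. It was 0.427 without 110, 0.351 without 16 and 0.262 without 4, and HS3ST3B1 did not pass without 33 or without 49 either. Within lane 7 the log2 fold change was -1.13 ± 0.819 and within lane 8 it was -0.85 ± 0.467.

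For all genes, 0 of 11868 (0%) were called between hypoxia and normoxia by edgeR without the block, where 324 had an unadjusted p under 0.05. DESeq2, run without the count filter on 25336 genes, called 0 as well, with 512 at such a p. With the block 4 (0.0337%) were called. None of the 4 tested members was among them, in either fit.

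The other 3-O-sulfotransferase with many reads was HS3ST5, which can make both the antithrombin-binding segment and others. In hypoxia it had 104, 121, 148, 70.3, 113 and 81.7 CPM in numbers 110, 16, 21, 33, 49 and 4. In normoxia the values were 40.4, 74.8, 140, 99.1, 42.1 and 97.1 CPM in the same order. The ranges overlapped, and hypoxia was the higher library in 4 numbers and the lower in 33 and 4. The mean was 106 ± 28.0 CPM in hypoxia and 82.2 ± 38.1 CPM in normoxia (SD, n = 6 each), with a log2 fold change of 0.40 ± 0.292 (SE; edgeR adjusted p = 1). Its title numbers spanned 72.2 to 144 CPM, 1.99-fold, and did not pass the test among numbers (adjusted p = 0.357).

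HS3ST3A1, the closest relative of HS3ST3B1, had far fewer reads, between 0 and 9 per library, and did not show the same order of numbers. Its hypoxia libraries had 4.96, 21.6, 19.2, 13.7, 15.2 and 0 CPM in the order 110, 16, 21, 33, 49 and 4, and its normoxia libraries 2.37, 7.01, 24.1, 2.75, 4.01 and 13.9 CPM. Number 21, the lowest for HS3ST3B1, had the highest mean here (21.7 CPM), and number 33 had 8.21 CPM. Close relatives can share reads where their sequences match, and how the authors' counting treated such reads is not given in the sources used here. In a fit without the count filter, in which 2303 of 25337 genes (9.09%) differed among numbers, HS3ST3A1 did not pass (adjusted p = 0.587).

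HS3ST1, which makes the antithrombin-binding segment, had 13 reads over the 6 hypoxia and 8 over the 6 normoxia libraries, or 4.97 CPM (95% exact Poisson interval 2.65 to 8.5) and 3.12 CPM (1.35 to 6.14). These intervals cover counting error alone. Its CPM was higher in hypoxia in 6 of 6 numbers, but in 110, 16 and 49 the read counts of the 2 libraries were equal and the scaling alone set the order. In 21, 33 and 4 it had 1 or 2 reads in hypoxia and 0 in normoxia. A count of 0 allows up to 3 reads, which is 14.5, 8.26 and 4.62 CPM in those normoxia libraries, so no difference was detectable at this depth.

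HS3ST2 and HS3ST4, known mainly from the nervous system, were as sparse. HS3ST2 had 6 reads in hypoxia and 7 in normoxia, with at most 3 in a library and 0 in 4 of the 12 libraries. HS3ST4 had 13 and 8 reads, at most 6 in a library (hypoxia 33), and was at 0 in both libraries of number 110. Their pooled levels were 2.29 CPM (0.842 to 4.99) and 2.73 CPM (1.1 to 5.62) for HS3ST2, and 4.97 CPM (2.65 to 8.5) and 3.12 CPM (1.35 to 6.14) for HS3ST4, in hypoxia and normoxia. The intervals overlapped for both genes.

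Among the NDST genes, NDST2 had the steadiest 5hmC signal. It is a broadly active enzyme that mast cells need for their heparin. Hypoxia libraries had 111, 95.8, 126, 125, 111 and 99.8 CPM, and normoxia libraries 78.3, 84.1, 145, 82.6, 94.3 and 134 CPM, in the order 110, 16, 21, 33, 49 and 4. The highest and the lowest library were both in normoxia, so the groups overlapped throughout. The means were 112 ± 12.5 and 103 ± 28.9 CPM (SD, n = 6 each), with a log2 fold change of 0.13 ± 0.223 (SE). The number means ran from 90.0 to 136 CPM, 1.51-fold, the narrowest range of the 9 genes, and did not pass (edgeR adjusted p = 0.724).

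NDST3, a form with a narrower expression range, had lower and more scattered values on 6 to 29 reads. Its hypoxia libraries had 34.7, 24.7, 38.4, 41.0, 26.1 and 23.6 CPM and its normoxia libraries 68.8, 16.4, 29.0, 41.3, 30.1 and 37.0 CPM, in the same order. Normoxia 110 was the highest and normoxia 16 the lowest, and hypoxia was higher in 2 of 6 numbers. The log2 fold change was -0.25 ± 0.316 (SE), and 0.036 without normoxia 110. The test among numbers gave an edgeR adjusted p of 0.331.

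NDST1, the main N-sulfation enzyme of most tissues, had enough reads in too few libraries to be tested. It had 8.69 to 31.2 CPM in hypoxia, with a median of 21.7, and 4.83 to 84.8 CPM in normoxia, with a median of 20.5. Normoxia 4 stood highest with 55 reads, while no other library had more than 16. In the fit without the count filter NDST1 differed among numbers (edgeR adjusted p = 0.0184), but not without number 4 (0.475) or without number 49 (0.056). Its log2 fold change in hypoxia was -0.55 ± 0.428 (SE) in that fit, with hypoxia higher in 3 numbers and lower in 3.

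**Figure D3:**
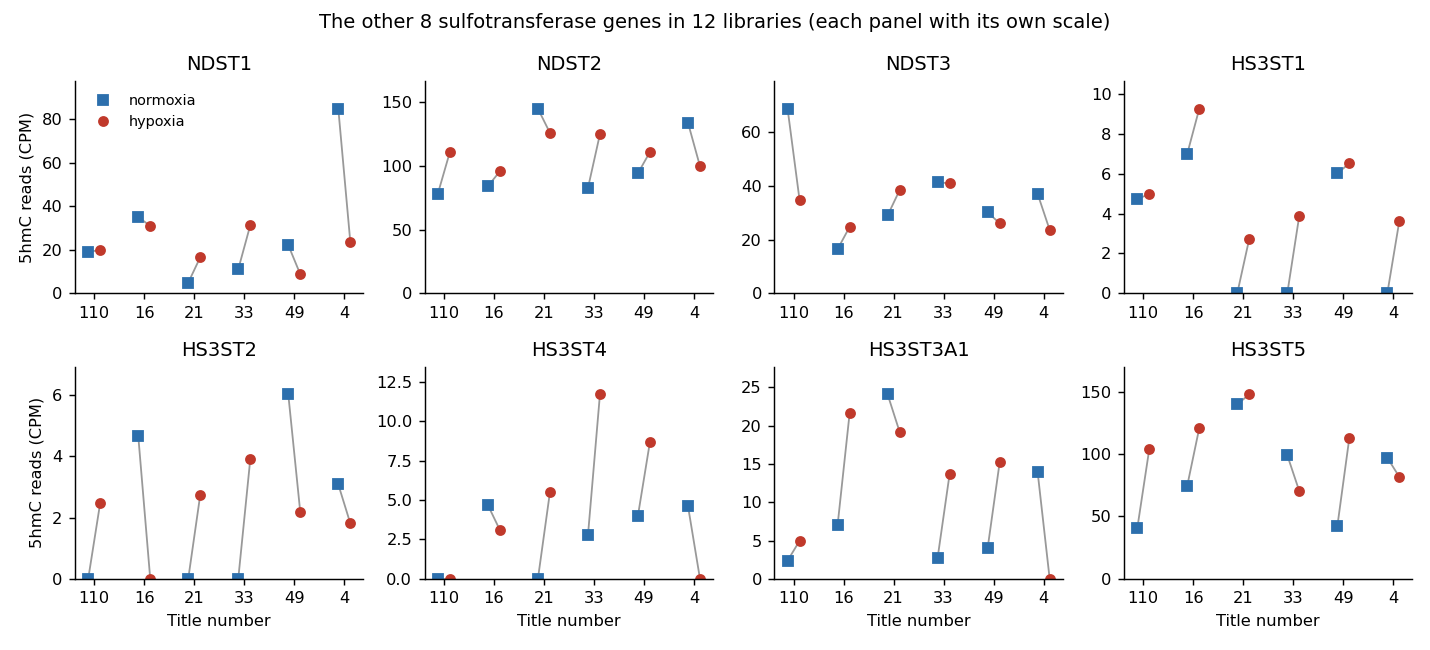
5hmC reads in CPM (y axes, each panel with its own scale) by title number for the 8 members other than HS3ST3B1, with normoxia as blue squares, hypoxia as red circles and grey lines joining the 2 libraries of a number. In every panel the 2 groups overlap. HS3ST1, HS3ST2, HS3ST3A1 and HS3ST4 include libraries at 0.

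The heparan sulfate sulfotransferases outside the 9 genes comprised 1 tested gene and 4 that did not meet the count filter. HS2ST1, the 2-O-sulfotransferase, had 26.5 ± 2.96 CPM in hypoxia and 28.2 ± 9.83 CPM in normoxia (SD, n = 6 each), with a log2 fold change of -0.14 ± 0.281 (SE), and did not differ among numbers (edgeR adjusted p = 0.854). HS6ST2, a 6-O-sulfotransferase, ranged from 2.34 to 70.2 CPM on 1 to 35 reads. Its number means were 33.7 CPM in 110, 5.80 in 16, 6.20 in 21, 20.2 in 33, 49.2 in 49 and 18.2 in 4, an order unlike that of HS3ST3B1. Without the count filter it differed among numbers (edgeR adjusted p = 0.000179, and 3.52e-05 to 0.0374 with 1 number left out at a time). It was lower in hypoxia in 5 of 6 numbers, with a log2 fold change of -0.87 ± 0.483 that did not pass (adjusted p = 1). HS6ST1 (20.8 ± 6.11 and 17.5 ± 9.78 CPM), HS6ST3 (11.5 ± 4.74 and 11.2 ± 5.88 CPM) and HS3ST6 (3.85 ± 4.10 and 4.60 ± 5.70 CPM, hypoxia and normoxia) did not pass either test in that fit.

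**Figure D4:**
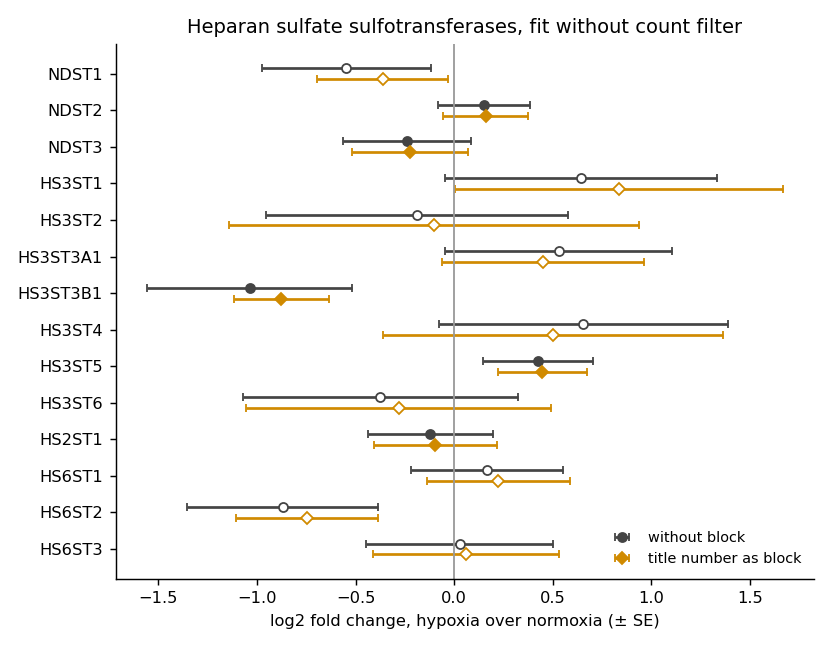
Log2 fold change of hypoxia over normoxia (x axis, ± SE) for the 14 heparan sulfate sulfotransferase genes with a row (y axis), from the fit without the count filter so that all can be shown, without (grey circles) and with (orange diamonds) the title number as a block. Filled symbols mark the 5 genes that passed the count filter and open symbols the 9 that did not; HS3ST3B1 lies farthest below 0 (-1.04 and -0.88).

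The rest of the pathway was read from 6 lists with 63 gene rows, the 5 further sulfotransferases included, of which 38 could be tested. None of the 38 was called between hypoxia and normoxia with or without the block. With TMM scaling 12 were higher and 26 lower in the hypoxia libraries by their log2 fold change (median -0.12), beside 5155 and 6713 of all genes tested (median -0.04). With library size as the only scaling they split 14 to 24 (median -0.07) and all genes 6080 to 5788 (median 0.01). Among title numbers 7 of the 38 (18.4%) passed, beside 12.8% of all genes.

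Of the enzymes that start and lengthen the chain, 0 of 7 tested differed among numbers. B3GAT3, which completes the linker to the core protein, had 94.9 ± 24.5 CPM in hypoxia and 66.4 ± 15.1 CPM in normoxia (SD, n = 6 each; log2 fold change 0.49 ± 0.245, SE). EXT1, a subunit of the polymerase, had 41.6 ± 9.79 and 58.9 ± 19.8 CPM (-0.48 ± 0.270). Neither passed over all genes (edgeR adjusted p = 1 for both).

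Among 6 tested genes for other modification and trimming, SULF2, which removes 6-O-sulfate outside the cell, differed among numbers (edgeR adjusted p = 0.00813). Its number means were 37.4 CPM in 110, 22.1 in 16, 33.4 in 21, 91.4 in 33, 33.2 in 49 and 67.9 in 4. As for HS3ST3B1, 33 and 4 were the highest, but 49 was not. SULF2 was lower in hypoxia in 6 of 6 numbers, with 37.7 ± 17.2 against 57.4 ± 36.0 CPM and a log2 fold change of -0.59 ± 0.365 (SE; adjusted p = 1, and 0.657 with the block). HPSE2, a relative of the chain-cutting heparanase, had -0.44 ± 0.285.

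The genes that supply activated sulfate gave 1 positive and 5 negative log2 fold changes among 6 tested, and none differed among numbers. PAPSS2, which makes the sulfate donor, had the most reads of those named here, with 316 ± 63.4 CPM in hypoxia and 380 ± 68.9 CPM in normoxia (SD, n = 6 each; log2 fold change -0.27 ± 0.201, SE). SLC35B3, which carries the donor into the Golgi, was lower in hypoxia in 6 of 6 numbers (32.0 ± 18.2 and 48.6 ± 18.0 CPM, -0.57 ± 0.340; edgeR adjusted p = 1, and 0.682 with the block).

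Of the core proteins 7 were tested and 1, the syndecan SDC2, differed among numbers (edgeR adjusted p = 0.00122). SDC2 was highest in number 110 (90.9 CPM) and 49 (54.2 CPM) and lowest in 4 (15.9 CPM) and 33 (19.0 CPM), the numbers where HS3ST3B1 was highest. In hypoxia SDC3 stood at 0.32 ± 0.263 (log2 fold change ± SE) and the glypican GPC4 at -0.16 ± 0.246, and neither passed.

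Heparin-binding ligands had the largest share of the 6 lists in the test among numbers, with 4 of 7 tested genes passing (57.1%, beside 12.8% of all genes). FGF2, a fibroblast growth factor that signals through heparan sulfate, was highest in number 49 (220 CPM) and lowest in 16 (37.6 CPM; edgeR adjusted p = 0.000372). VEGFA, the vascular growth factor, had 181, 136 and 194 CPM in 33, 49 and 4, and 51.0, 93.5 and 58.4 CPM in 110, 16 and 21 (adjusted p = 0.0012). HBEGF, an EGF receptor ligand, was highest in 33 (69.3 CPM) and 4 (59.2 CPM; adjusted p = 0.0294). FGF10 was lowest in 16 (38.8 CPM; adjusted p = 0.00924). In hypoxia FGF1 had 35.8 ± 10.4 CPM against 55.1 ± 16.3 CPM in normoxia (SD, n = 6 each; log2 fold change -0.57 ± 0.275, SE; adjusted p = 1) and HBEGF had -0.54 ± 0.374.

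Sulfotransferases of chondroitin and dermatan sulfate, the sister chains, had 5 tested genes. UST, which adds 2-O-sulfate there, differed among numbers (edgeR adjusted p = 0.00335), with 285, 243 and 245 CPM in 110, 16 and 21 and 99.7, 125 and 139 CPM in 33, 49 and 4. That is the reverse of the order of HS3ST3B1 between these sets of numbers. CHST9 had 52.5 ± 14.8 CPM in hypoxia and 38.4 ± 21.9 CPM in normoxia (SD, n = 6 each; log2 fold change 0.49 ± 0.334, SE), and CHST11 had 214 ± 48.2 and 260 ± 58.1 CPM (-0.27 ± 0.217). Neither passed.

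HS3ST3B1 lies on the chromosome near HS3ST3A1, with 4 gene rows of the tables between them in the order of the RefSeq table (Sscrofa11.1). Of the 6 neighbours on either side, 4 of 12 could be tested, and 1 differed among numbers. This was LOC110255893, an uncharacterised locus (edgeR adjusted p = 0.00225), with 71.4 and 69.4 CPM in 33 and 4 but 15.9 CPM in 49, and 14.6, 36.5 and 29.6 CPM in 110, 16 and 21. The adjacent LOC110255892 had 19.3 to 69.2 CPM (adjusted p = 0.105), COX10, a cytochrome oxidase assembly gene, 7.90 to 38.2 CPM (0.229) and LOC106508625 188 to 273 CPM (0.605). LOC106505533, next to HS3ST3B1 on its other side, had 10.6 to 28.6 CPM on 3 to 13 reads and was not tested. None of these 5 neighbours had its means of 33, 49 and 4 all above those of the other numbers, but 2 came close. COX10 had 38.2, 32.0 and 37.4 CPM there, against 30.0, 32.2 and 7.90 CPM in 110, 16 and 21. LOC110255892 had 69.2, 35.7 and 48.9 CPM against 19.3, 35.3 and 39.8 CPM. LOC106508625 ran in reverse, with 203, 188 and 200 CPM against 247, 273 and 215 CPM.

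**Figure D5:**
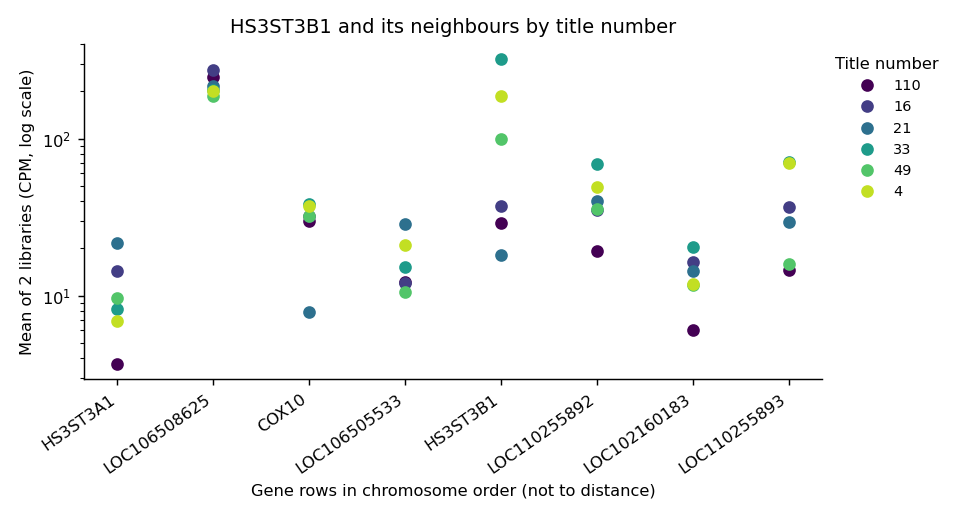
Mean CPM of the 2 libraries of each title number (y axis, log scale; 1 colour per number) for HS3ST3B1 and the neighbouring gene rows with at least 50 reads, in chromosome order and not to distance (x axis). HS3ST3B1 spans 18.2 to 320 CPM, with 33, 4 and 49 on top, and LOC106508625 spans 188 to 273 CPM.

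The genes whose log2 CPM ran most like that of HS3ST3B1 over the 12 libraries were LOC100510904, BMP7, DUSP6, TSHZ3 and SH3PXD2B. Likeness was measured by Pearson's r, which was 0.971, 0.958, 0.953, 0.946 and 0.941 in that order, and is given as a description since the libraries fall into 2 sets and share depth and scaling. Within the 6 libraries of 110, 16 and 21 the r was 0.609 to 0.941, and within those of 33, 49 and 4 it was 0.866 to 0.977. DUSP6, a phosphatase that switches off ERK, had 29.0 to 116 CPM in 110, 16 and 21 and 109 to 438 CPM in 33, 49 and 4, with a slight overlap. BMP7, a bone morphogenetic protein, had 24.8 to 46.7 and 60.2 to 157 CPM, with no overlap. There was none either for LOC100510904 (19.3 to 28.0 and 32.6 to 49.6 CPM) and SH3PXD2B (237 to 324 and 341 to 512 CPM). TSHZ3 overlapped (29.0 to 86.4 and 78.2 to 196 CPM). These genes were picked by r over the same libraries, so a separation of the 2 sets follows largely from the pick. Their separation, their r within the sets and their differences among numbers therefore add no evidence. How many of all genes separate in this way was not counted. BMP7, DUSP6 and TSHZ3 differed among title numbers (edgeR adjusted p of 0.00055, 3.91e-05 and 0.00232), and LOC100510904 (0.29) and SH3PXD2B (0.338) did not pass. Of the tested sulfotransferases HS2ST1 had an r of 0.562 with HS3ST3B1, NDST3 0.097, NDST2 -0.187 and HS3ST5 -0.295, so no other tested member ran with it.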

How the data were processed

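Per the labels' protocols, DNA was sonicated, denatured, incubated with an anti-5hmC antibody, made into libraries with a single-strand kit and sequenced from both ends. Per the submitters' processing notes, Bowtie2, Picard, HTSeq, MACS2 and edgeR were used. The authors deposited raw read counts per gene symbol for each library. Genome build, annotation, feature type and strand setting: not given in the sources used here, so it is unknown whether introns were counted. Peak lists were not used, since without a named build they cannot be placed on genes, and the input sample, which has no group, was not analysed here. The tables hold 27339 gene rows, of which 26838 matched a RefSeq symbol. Rows naming no gene were left out: reads outside any feature made up 88.03 to 92.99% of each library, low alignment quality 4.12 to 10.28%, and a blank name 0. Genes held 1.693 to 2.886% of reads. In all 66 pairs of libraries the counts differed by more than sampling noise (lowest chi-square 1.26 per degree of freedom).

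The tests used edgeR 4.0.16 (R 4.3.3), with filterByExpr (minimum count 10, minimum total 15), TMM, glmQLFit and glmQLFTest, with Benjamini-Hochberg adjustment over all 11868 tested genes and a threshold of 0.05. Each SE was obtained by dividing the log2 fold change by the square root of its F. The fits were also run on simulated counts, the outcome of which is not given here. For the hypoxia fits these counts held no differences among numbers, so they do not represent the fit without the block. Title numbers were tested as all their coefficients together, with oxygen in the model. By the check of the numbers, the 2 libraries of a number deviated together from their group means (r across genes 0.136 to 0.478, all above 0.1), so by that rule the numbers, which come from the titles, were taken to pair the libraries. Single pairs of unlike numbers reached 0.504 (mean -0.073), so the pairing carries doubt. DESeq2 1.42.0 was an alternative. The members and lists were chosen with earlier results of these data known. Named are the members, the other heparan sulfate sulfotransferases, the 2 genes of each list with the smallest p in hypoxia and the 5 genes most like HS3ST3B1. The list genes that differed among numbers and the neighbours were chosen after their values were seen.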

Additional observations from a re-analysis of the deposited data

How the results depend on the processing

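Depth limits 5 of the 9 members, which had enough reads in too few libraries for the test. With the replicate block (title number) the count of genes called between hypoxia and normoxia went from 0 to 4, and to 0, 3, 12, 0, 1 and 0 when number 110, 16, 21, 33, 49 or 4 was also left out. It stayed at 0 with RLE scaling, library size alone, no count filter, DESeq2, within lane 7, within lane 8 and without any 1 library. The log2 fold changes of HS3ST3B1 and HS3ST5 kept their sign in all 25 alternatives. These alternatives reuse the same libraries and the HS3ST3B1 contrast was known beforehand, so the kept sign adds no evidence. NDST2 turned to -0.081 within lane 8. NDST3 ranged from -0.39 to 0.036 without 1 library, turning without normoxia 110. The block changed no call of a member with all numbers in. Without number 21, the only number where HS3ST3B1 was higher in hypoxia, that gene passed in the blocked fit (edgeR adjusted p 0.0267). Leaving out any other number, it did not pass. The count of genes that differed among numbers was 2303 without the count filter, 834 within lane 7, 219 within lane 8, and 884 to 1935 without 1 number. The HS3ST3B1 call held in 10 of 11 alternatives and was lost within lane 8, which has 2 numbers. For NDST1 and HS6ST2, leaving out numbers in the fit without a filter was chosen after seeing the data. Other causes were not tested.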
